A study of Mus musculus with 1 sample.

Results

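The tumour necrosis factor (TNF) superfamily was examined in glia cultured from mouse ventral midbrain (VM), as 45 genes among the 23282 rows of the expression table. They were 18 ligands and 27 receptors, chosen by gene symbol alone: Tnf, Lta, Ltb, Cd40lg, Cd70, Fasl, Eda and symbols that begin with Tnfsf and a number for the ligands, and Ltbr, Cd40, Cd27, Fas, Ngfr, Edar, Eda2r and symbols that begin with Tnfrsf and a number for the receptors. The study asked what inhibition of the serum- and glucocorticoid-regulated kinase SGK1 does to glial inflammation, and used NFκB signalling and TNFα among its readouts. The library described here is labelled as the control. The cells were primary mixed glia, not a clonal line, from ICR(CD-1) Outbred Mice with an age label of postnatal day 5, and were grown in medium with serum and subcultured on poly-d-lysine. A legend in the study names DMSO as the vehicle of the control. The treatment text of the label describes inhibitor given with toxins, and no source states whether the control culture received a toxin or how many pups were pooled. With 1 library there is no replicate, so no value below has an error between cultures, no difference was tested, and neighbours in an order of levels cannot be told apart.

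Ligands of this superfamily are mostly made as membrane-bound trimers, some of which are cut from the cell surface, and each binds 1 or more receptors with cysteine-rich repeats outside the cell. Receptors without a death domain bind TRAF adaptors and activate NFκB and stress kinases, receptors with a death domain can also assemble caspase-8 complexes, and decoy receptors bind ligand without passing on a signal. In the brain, TNF from microglia acts on astrocytes, oligodendrocytes and neurons, whereas many other family members are known from lymphocytes.

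The deposited values were whole numbers per gene, with the scaling not stated. A figure legend of the study speaks of normalised read counts, but whether the deposited values are those counts was not stated. A gene was called detected at a value of 10 or more. Since long genes collect more reads, levels were compared between genes as the length-scaled level. In places undivided values are also set beside each other, which takes no account of length. The length-scaled level is the value per 1000 bases of annotated exon per 1000000 of the sum of all values. The sum was 27569507, and the number of sequenced reads behind it is unknown. The labelled identity of the culture was checked first. All 10 microglia markers and all 8 astrocyte markers were detected, with median length-scaled levels of 129 and 17.5. Medians of different gene lists do not measure cell shares, and the study reports more astrocytes than microglia in its VM-glial cultures. Also detected were 7 of 7 mesenchymal markers (median 24.7, highest Acta2), 8 of 8 oligodendrocyte lineage markers (5.88), 5 of 6 neuronal markers (1.19) and 4 of 6 endothelial markers (0.282), so the levels below are those of a mixture, and the part of each cell type in them was not tested. In such a mixture, fewer cells of a type and less RNA per cell cannot be told apart.

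Of the 45 members, 34 (75.6%) were detected, against 67.2% of all rows of the table. The members together held 21417, or 0.0777% of the sum. Values of 1000 or more were found for 7 members, all of them receptors, and 13 members lay between 10 and 100. Just inside the minimum were Edar at 10 and Tnfrsf25 and Tnfrsf4 at 11 each, and just outside it were Ltb and Tnfrsf18 at 9 each. Cd70 and Cd40lg were listed at 0. Among the receptors 24 of 27 were detected, and among the ligands 10 of 18. The median length-scaled level was 1.84 for receptors and 0.218 for ligands, a ratio of 8.45. These medians include undetected members. The median of all rows with a length was 1.13, and that of detected genes alone was 3.71. When only detected members were kept, the ratio of the medians was 1.12. That step removed 8 ligands and 3 receptors. Receptors held 85.0% of the summed length-scaled level of the family, and the 7 highest members held 78.7%.

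**Figure D1:**
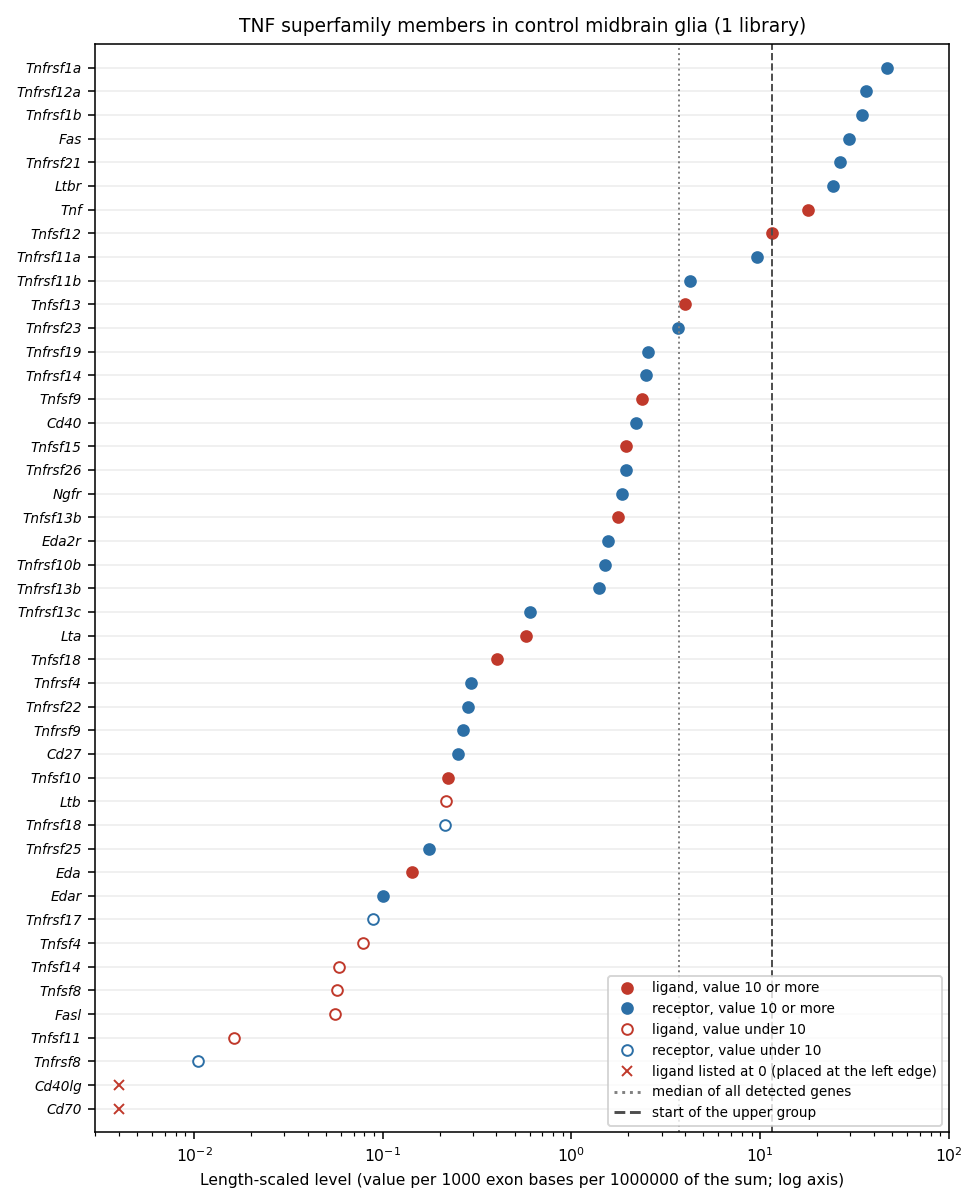
Length-scaled level of the 45 members (rows, log axis) in the control library, with ligands in red and receptors in blue, filled where the value was 10 or more. The 6 highest members are receptors, Tnf is the seventh, and both members listed at 0 are ligands.

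The top 25.0% of all detected genes, called the upper group here, began at a length-scaled level of 11.6. Of the 34 detected members, 7 were in it: Tnfrsf1a, Tnfrsf12a, Tnfrsf1b, Fas, Tnfrsf21, Ltbr and Tnf. Tnfsf12, at 11.5, was the nearest member under it. The number of members was again 7 when values were not divided by length and when the longest transcript served as the length, and it was 9 when the boundary was set on all genes. Without division by length, however, the members were not all the same. By undivided value Tnfrsf11a (1580) stood among the 7 in place of Tnf (810), so all 7 were receptors.

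The genome around the start sites of these members was looked at as a feature that the choice by name did not use. The 250 bases before the start are shown for 6 members that pair high with low levels. Tnf and Tnfrsf1b are a ligand and its receptor, both in the upper group. Ltbr and Cd27 are neighbours on chromosome 6 that differ in level, and Fas and Fasl are a receptor and its ligand that differ in level. CpG dinucleotides are in capitals. The sequences are from RefSeq start sites on GRCm38.p6, 5′ to 3′ on the strand of the gene: chr17:35202008-35202257 (minus) for Tnf, chr4:145246871-145247120 (minus) for Tnfrsf1b, chr6:125313886-125314135 (minus) for Ltbr, chr6:125237028-125237277 (minus) for Cd27, chr19:34290409-34290658 (plus) for Fas and chr1:161788496-161788745 (minus) for Fasl.
Tnf: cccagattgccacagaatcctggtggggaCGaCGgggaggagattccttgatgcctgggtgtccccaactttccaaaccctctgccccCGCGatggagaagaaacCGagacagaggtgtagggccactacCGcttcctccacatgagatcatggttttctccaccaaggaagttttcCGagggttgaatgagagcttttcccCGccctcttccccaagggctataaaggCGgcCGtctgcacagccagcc
Tnfrsf1b: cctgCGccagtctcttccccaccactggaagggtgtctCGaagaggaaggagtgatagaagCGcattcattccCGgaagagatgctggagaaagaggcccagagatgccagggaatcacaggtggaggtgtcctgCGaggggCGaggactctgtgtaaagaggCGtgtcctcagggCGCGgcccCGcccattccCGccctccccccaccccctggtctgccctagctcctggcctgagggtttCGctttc
Ltbr: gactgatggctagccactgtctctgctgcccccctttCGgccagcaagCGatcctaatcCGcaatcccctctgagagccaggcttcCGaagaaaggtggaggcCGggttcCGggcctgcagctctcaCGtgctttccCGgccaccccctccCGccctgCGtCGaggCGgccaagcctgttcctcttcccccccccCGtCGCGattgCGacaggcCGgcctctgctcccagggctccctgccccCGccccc
Cd27: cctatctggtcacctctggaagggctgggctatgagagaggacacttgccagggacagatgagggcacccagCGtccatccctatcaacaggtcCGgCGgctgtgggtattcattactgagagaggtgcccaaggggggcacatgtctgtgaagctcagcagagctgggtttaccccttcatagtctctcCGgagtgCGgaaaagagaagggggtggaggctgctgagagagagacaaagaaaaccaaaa
Fas: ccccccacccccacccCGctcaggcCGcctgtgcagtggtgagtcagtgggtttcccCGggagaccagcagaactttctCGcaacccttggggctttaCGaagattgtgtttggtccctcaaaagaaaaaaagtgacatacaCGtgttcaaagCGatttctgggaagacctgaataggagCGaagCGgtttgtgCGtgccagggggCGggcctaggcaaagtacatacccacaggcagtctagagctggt
Fasl: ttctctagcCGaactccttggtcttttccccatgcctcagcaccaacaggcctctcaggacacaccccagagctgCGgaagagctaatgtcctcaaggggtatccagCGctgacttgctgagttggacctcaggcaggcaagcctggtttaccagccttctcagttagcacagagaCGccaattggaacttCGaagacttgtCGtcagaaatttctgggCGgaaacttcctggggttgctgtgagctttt

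CpG dinucleotides numbered 10 for Tnf, 12 for Tnfrsf1b, 18 for Ltbr, 5 for Cd27, 11 for Fas and 7 for Fasl. Of the 45 members, 35 had such a sequence. Where a gene had several, the one with most CpG was taken. All 7 members of the upper group had more CpG than the median of 6 over 27025 genes, with a range of 9 to 18. CpG counts of the other genes in the upper group were not computed, so whether the family differs from them was not tested. Among the 20 other detected members 10 lay above that median, with a range of 2 to 31, and among the 8 members under the minimum 3 did, with a range of 2 to 12. The ranges overlap. Tnfrsf11a had the most CpG of all (31) at a length-scaled level of 9.58, and Eda had 19 at a level of 0.143. Other contrasts in level than those shown came with little or no difference in CpG. The neighbours Tnfrsf1b and Tnfrsf8, with values of 3626 and 1, had 12 CpG each. Tnf and Lta, with values of 810 and 22, had 10 and 9. The letters TATAAA, on the gene's strand, stood in 5 of the 39 member sequences (Tnf, Lta, Tnfsf18, Eda2r and Tnfrsf17), against 7.59% of all 32851 sequences. The NFκB consensus was found on either strand in 4 member sequences (Ltb, Tnfrsf8, Tnfrsf9 and Tnfrsf25), against 7.25% of all. The AP-1 consensus TGANTCA was found in 6, those of Fas, Tnfrsf8, Tnfrsf9, Tnfsf13, Tnfsf13b and Tnfsf14, against 6.75%. A match is a run of letters and not a measured binding site, and the lack of one in Tnf says only that this consensus is not in this stretch.

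**Figure D2:**
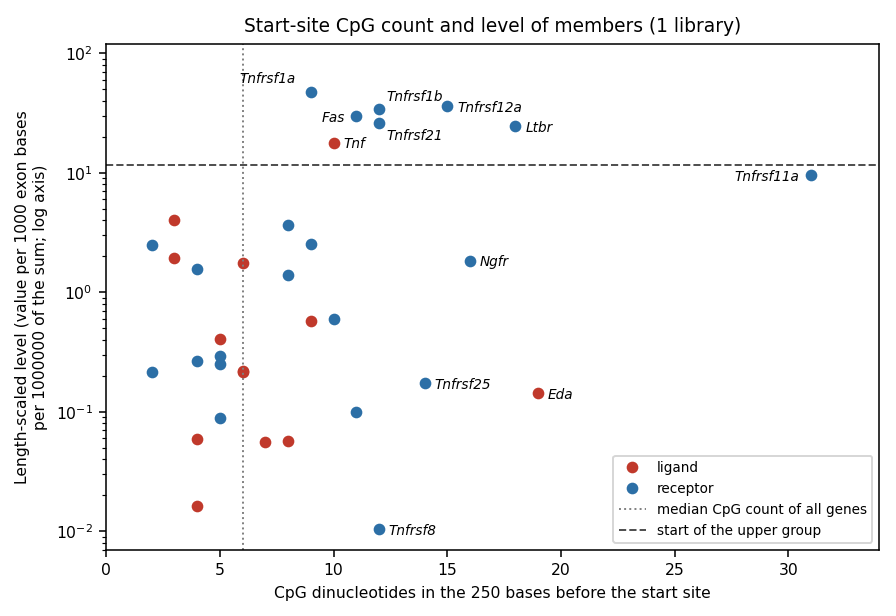
Length-scaled level (log axis) of the 35 members with a start-site sequence against the number of CpG dinucleotides in the 250 bases before the start, with ligands in red and receptors in blue. The 7 members above the dashed boundary of the upper group have 9 to 18 CpG, but members with as many also lie far below it.

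TNF itself was examined first among the ligands, because it was the cytokine of this family that the study followed. Tnf (ENSMUSG00000024401.14, chromosome 17, 35199381 to 35202007, minus strand) encodes the founding ligand, which is released from the cell surface by the protease ADAM17. Its value was 810 and its length-scaled level 17.9, above 82.3% of detected genes. Both of its receptors were higher. Tnfrsf1a, the death-domain receptor found on most cell types, had a value of 3368 and the highest length-scaled level of the family, 47.1 (chromosome 6, 125349362 to 125362484). Tnfrsf1b, the receptor without a death domain that is typical of immune cells and microglia, had the highest undivided value, 3626, and a level of 34.4 (chromosome 4, 145213463 to 145246870). The level of Tnfrsf1a was 1.37 times that of Tnfrsf1b and 2.63 times that of Tnf. Lta, which encodes the secreted lymphotoxin that binds the same receptors, was at 22, and Ltb, its membrane-bound partner, was at 9 and not detected. The 3 genes lie within 10.9 kb of each other in the class III region of the major histocompatibility complex, and of them only Tnf was above the median level of detected genes. The lymphotoxin-β receptor gene Ltbr, in contrast, was at 1587 with a level of 24.5, and neither Ltb nor Tnfsf14, at 3, was detected.

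The second ligand with a high level was Tnfsf12, which encodes TWEAK, a cytokine that promotes proliferation and migration in many tissues. It was at 480 with a length-scaled level of 11.5. Its only established receptor, Fn14, is encoded by Tnfrsf12a, a gene induced by injury and growth factors. Tnfrsf12a was at 1935 with a level of 36.3 (chromosome 17, 23675445 to 23677468), 3.16 times that of Tnfsf12. With the longest transcript in place of all annotated exons, the level of Tnfrsf12a was 71.3 and exceeded the 56.7 of Tnfrsf1a under the same setting, so which of these receptors comes first depends on the gene model. Tnf and Tnfsf12 together held 71.2% of the summed length-scaled level of the 18 ligands.

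Tnfsf12 and its neighbour Tnfsf13 (APRIL, a ligand for B lineage cells, at 181) lie within 13.0 kb on chromosome 11 and share exons with a read-through gene, Tnfsfm13, whose protein joins parts of both. The name rule does not take in Tnfsfm13, which had a row of its own with a value of 1190, more than either neighbour. The length-scaled level of Tnfsfm13 was 19.3, above the 17.9 of Tnf and above the boundary of the upper group at 11.6. Of its 2235 exon bases, 489 (21.9%) belong to no other gene, against 784 of 1515 (51.7%) for Tnfsf12 and 654 of 1637 (40.0%) for Tnfsf13. How the counting assigned reads in shared exons was not stated. With only the unshared bases as the length, an alternative chosen after the data were seen, the level was 22.2 for Tnfsf12 and 10.0 for Tnfsf13. That level was not computed for Tnfsfm13. On that scale Tnfsf12 lay above Tnf and above the boundary of the upper group, so the order of these ligands is uncertain.

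The B lymphocyte ligands were present while most of their receptors were low. Tnfsf13b, which encodes the B cell survival factor BAFF, was at 332 with a length-scaled level of 1.75, and Tnfsf13 had a level of 4.01. The receptor genes were at 110 for Tnfrsf13b (TACI), 34 for Tnfrsf13c (the BAFF receptor) and 2 for Tnfrsf17 (BCMA). Both ligands thus had higher levels than each of these receptors. The B cell markers of the culture were also low. Of 5, Cd79b and Pax5 were listed at 0 and the highest value was 16, for Ms4a1, and their summed length-scaled level was 0.363.

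Among the remaining ligands, Tnfsf15 (TL1A) was at 179 with a level of 1.94 and Tnfsf9, a co-stimulatory ligand of T cells, was at 84 with a level of 2.36. Exons of Tnfsf9 overlap a long noncoding RNA gene on the opposite strand over 192 bases. Their receptors were low, with Tnfrsf25 at 11 and Tnfrsf9 at 20. Tnfsf10, which encodes the death ligand TRAIL, was at 32, Eda, the ectodysplasin ligand of skin appendages, at 27, and Tnfsf18 at 23. The other ligands were under the minimum. Tnfsf8 was at 6, Tnfsf4 at 4, Fasl at 3 and Tnfsf11, which encodes the osteoclast factor RANKL, at 1. Most of these are best known from activated lymphocytes or from bone and lymphoid stroma.

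**Figure D3:**
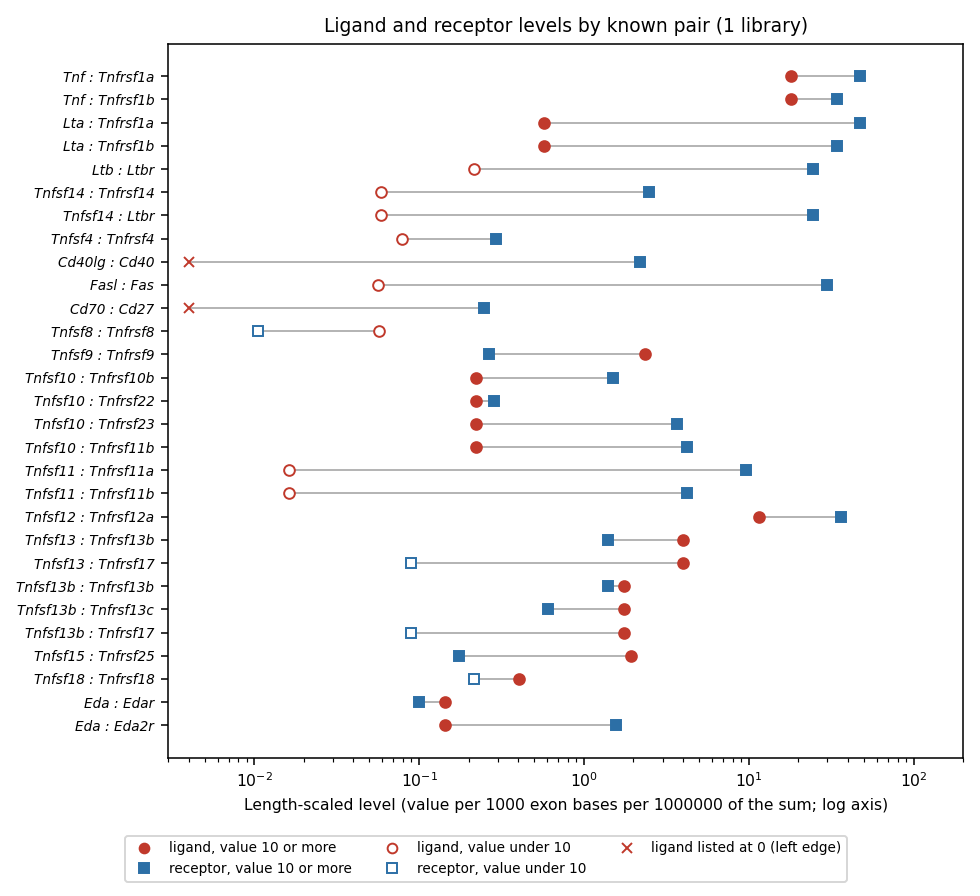
Length-scaled levels (log axis) of ligand (red) and receptor (blue) in 29 listed pairs, with open symbols for values under 10. In 9 pairs only the receptor was detected, and in 3 only the ligand. Some genes stand in several pairs.

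Known pairs were then compared within this library. The 18 ligands were listed in 29 pairs with receptors among the members. In 16 pairs both genes were detected, in 9 only the receptor, in 3 only the ligand and in 1 neither. Of all single rows 67.2% were detected, and no share for pairs of other genes was computed. Among the 16, the receptor had the higher length-scaled level in 10 and the ligand in 6. Pairs share genes, so these are not counts of independent pairs. All pairs of Tnf, Lta and Tnfsf10 were among the 10, and the detected pairs of Tnfsf13b were among the 6. The receptors of receptor-only pairs included Fas, Ltbr, Tnfrsf11a and Cd40, none of which had a detected ligand among the listed pairs. Tnfrsf14 was also among them through its pair with Tnfsf14, but lymphotoxin-α, whose gene Lta was detected at 22, is another known ligand of Tnfrsf14 and that pair was not on the list. The count of 16 depends on the minimum, and was 27 with a minimum of 1 and 5 with a minimum of 100. The pairs still counted at 100 were those of Tnf with both of its receptors, Tnfsf12 with Tnfrsf12a, and Tnfsf13 and Tnfsf13b with Tnfrsf13b.

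The 7 receptors with a death domain were all detected, against 67.2% of all rows, over a range of values from 10 to 3368. Beside Tnfrsf1a, Fas was at 1688 with a level of 29.7, above 88.9% of detected genes (chromosome 19, 34290666 to 34327772). Fas is the receptor through which cytotoxic lymphocytes trigger apoptosis. Tnfrsf21 (death receptor 6), a receptor known from neurons and oligodendrocyte precursors, was at 2986 with a level of 26.4 (chromosome 17, 43016555 to 43089189). These 3 were far above the others of the group. Tnfrsf10b, the mouse TRAIL receptor that signals death, was at 226 with a level of 1.504, which became 2.58 with the longest transcript as the length. Ngfr, the neurotrophin receptor of low affinity, was at 175 with a level of 1.84. Tnfrsf25 and the ectodysplasin receptor Edar were near the minimum, as given above.

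All 3 decoy or soluble receptors were detected, against 67.2% of all rows. Tnfrsf11b encodes osteoprotegerin, a secreted decoy for RANKL and TRAIL, and was at 328 with a level of 4.22. The mouse decoy receptors for TRAIL, Tnfrsf23 and Tnfrsf22, were at 403 and 33, and the level of Tnfrsf23 was 13.0 times that of Tnfrsf22. These genes lie in a cluster on chromosome 7 with Tnfrsf26, a receptor without a known ligand, which was at 172 with a level of 1.94. Transcripts of Tnfrsf22 and Tnfrsf23 share a stretch of 2172 bases at 91.2% identity. How reads that fit both were treated was not stated, so their ratio is uncertain. Exons of Tnfrsf23 and Tnfrsf26 also overlap an antisense gene over 164 and 107 bases.

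Of the 10 receptors of lymphocytes and of co-stimulation, 7 were detected, against 67.2% of all rows. As a group they had the lowest median length-scaled level of the 4 receptor groups, 0.279. Their range overlapped those of the other groups, since Tnfrsf14 and Cd40 lay above Ngfr and Eda2r. The highest was Tnfrsf14 (HVEM) at 98 with a level of 2.47, followed by Cd40 at 207 with a level of 2.20 and Tnfrsf13b with a level of 1.41. Cd40 is carried by antigen-presenting cells, activated microglia among them, and its ligand Cd40lg was listed at 0. Tnfrsf9 was at 20, Cd27 at 16, Tnfrsf4 (OX40) at 11, Tnfrsf18 (GITR) at 9 and Tnfrsf8 (CD30) at 1. Exons of Cd27 overlap a microRNA gene, and those of Tnfrsf18 an antisense gene over 414 bases. None of these 10 receptors was in the upper group. Of the T and NK cell markers, 4 of the 8 with a row were detected. The detected markers were Cd3d at 202, Cd4 at 40, Cd8b1 at 12 and Klrb1c at 10. Those under the minimum were Ncr1 at 4, Cd3e and Cd3g at 2 each and Cd8a at 1. The summed length-scaled level of the list was 4.96, most of it from Cd3d (4.04). The part of lymphocytes in the receptor levels was not tested.

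The 7 remaining receptors were all detected, against 67.2% of all rows, and had the highest group median, a length-scaled level of 9.58. Besides Tnfrsf12a, Tnfrsf1b and Ltbr, they included Tnfrsf11a, which encodes RANK, the receptor that drives osteoclast formation from myeloid cells. Tnfrsf11a was at 1580 with a level of 9.58, above 71.5% of detected genes and 2.27 times the level of its decoy competitor Tnfrsf11b, while their ligand Tnfsf11 was at 1. Tnfrsf19 (TROY), which can pair with the Nogo receptor, was at 331 with a level of 2.53. The ectodysplasin receptor gene Eda2r, a target of p53, was at 254 with a level of 1.56, 10.9 times that of its ligand Eda.

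Several members are neighbours in the genome, and in some of these clusters the levels differed. The lower member of each contrast given here was at 16 or less, and no rate of such differences among neighbouring genes in general was computed. On chromosome 6, Cd27, Ltbr and Tnfrsf1a lie within 130 kb, and the level of Tnfrsf1a was 189 times that of Cd27. On chromosome 4, Tnfrsf1b and Tnfrsf8 lie within 102 kb, with values of 3626 and 1, and Tnfsf15 and Tnfsf8 lie within 134 kb, with values of 179 and 6. On chromosome 17, Tnfsf9, Cd70 and Tnfsf14 lie within 88.9 kb at values of 84, 0 and 3. The genes Tnfsf4, Tnfsf18 and Fasl span 393 kb of chromosome 1 and were uniformly low, with a highest value of 23.

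The machinery shared by the family was examined with lists of genes known from its pathways. All 28 signal transducers were detected, against 67.2% of all rows. Their median length-scaled level was 4.73, and that of all detected genes was 3.71. The highest were Otulin (29.5), a deubiquitinase of linear chains, Casp8 (28.1), the initiator caspase of death receptors, and Tab2 (19.7), and the lowest was Edaradd (0.114), the adaptor of the ectodysplasin receptor Edar. The adaptors Tradd and Fadd had levels of 5.83 and 2.62, and the necroptosis genes Ripk3 and Mlkl 3.26 and 1.54. Among the TRAF genes, Traf3 was highest (6.60) and Traf5 lowest (1.03). All 5 genes of ectodomain shedding were detected. Adam10 had a level of 36.0, Adam17, whose product releases TNF, 21.9, its partner Rhbdf2 15.1, the paralog Rhbdf1 4.37 and the inhibitor Timp3 42.5.

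Of 18 genes that TNF and NFκB are known to induce, 17 were detected, against 67.2% of all rows. The median level of the 18 was 7.71, and Csf2 was listed at 0. The highest were Tnfaip2 (34.5), Nfkbia (32.8), the inhibitor of NFκB, and Icam1 (32.2), an adhesion molecule. The feedback genes Tnfaip3 and Birc3 had levels of 8.04 and 5.54. These levels are those of a culture without inhibitor, and no comparison with SGK1-inhibited glia was made here.

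**Figure D4:**
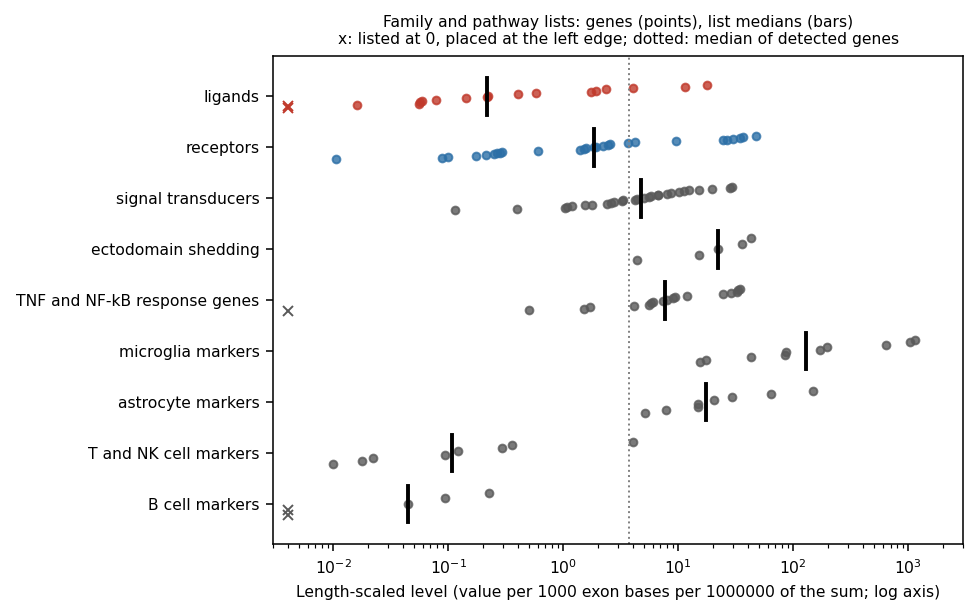
Length-scaled levels (log axis) of the ligands, the receptors, the pathway lists and 4 marker lists, with 1 point per gene and a bar at the list median. The ligand median (0.218) lies left of the dotted median of detected genes (3.71) and the signal transducer median (4.73) right of it. The ligand median includes ligands that were not detected.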

How the data were processed

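The data were 1 RNA-seq library of control VM-glia. Per the study's methods, the authors trimmed bases with quality below 20, aligned reads to GRCm38/mm10 with STAR and counted those on exons of RefSeq Release 105 genes with HTSeq-count, whereas the submitters' processing notes name TopHat and edgeR. Versions, strand setting and the handling of reads shared by genes are not given in the sources used here. The deposited values, which the authors call normalised read counts, are whole numbers of unknown scaling and were treated as a score, so no count test, interval or floor was computed.

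Gene positions, exon lengths and overlaps came from GENCODE M21 (GRCm38), not the annotation that was counted on. All 45 members matched by symbol. Symbols present in more than 1 row (35) and rows without a match were left out of the distribution of levels, which left 22851 rows. Transcript similarity was searched with BLASTN (90% identity over 500 bases or more). Start-site sequences came from RefSeq GRCm38.p6.

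The members and gene lists were chosen with earlier results of these data known. Every member is named. Of the pathway lists the highest and lowest genes and those at 0 are named, with a few more chosen after their values were seen. Of the cell type marker lists only some genes are named. Some genes of the lists are not reported here. The placement of levels was checked on simulated data. Alternatives were other minima, other lengths and a sum without the 10 highest genes. Tools were Python 3.11.15, numpy 2.4.6, pandas 2.3.3 and matplotlib 3.10.9.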

Additional observations from a re-analysis of the deposited data

How the results depend on the processing

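With minima of 1, 3 and 100 in place of 10, the members detected numbered 43, 40 and 21, the ligands 16, 15 and 5, the receptors 27, 25 and 16, and the pairs with both genes detected 27, 22 and 5. The receptor to ligand ratio of medians was 7.78 without division by length, 8.68 with the longest transcript and 1.12 with detected members only, where the 8 undetected ligands drop out by construction. Members in the upper group numbered 7 with either other length and 9 with the boundary set on all genes. Without division by length, Tnfrsf11a took the place of Tnf among the 7. Of the 34 length-scaled levels of detected members, 2 moved by more than 1.5 times with the longest transcript, those of Tnfrsf12a (71.3) and Tnfrsf10b (2.58), and none did when the 10 highest genes were left out of the sum, which raised each level 1.15 times. With unshared exon bases, added after the data were seen, Tnfsf12 was at 22.2 and Tnfsf13 at 10.0. No paired analysis was possible because there is 1 library. Values near 10 have unknown counting error, since the depth is unknown.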

Other observations

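Genes outside the choice by name, picked after their values were seen, touch the same receptors. Relt, a TNF receptor superfamily gene without a Tnfrsf symbol, was at 275 with a length-scaled level of 3.04, above 45.6% of detected genes. Grn encodes progranulin, a secreted protein reported to bind TNF receptors, and was at 56185 with a level of 587, above 99.5% of detected genes. App, whose product has been described as a ligand of the receptor encoded by Tnfrsf21, was at 31822 with a level of 88.8, above 96.3% of detected genes.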
